A study of Mus musculus with 8 samples.

Results

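The 10 mouse genes described here encode the mitochondrial arm of folate-bound one-carbon metabolism: Mthfd2, Mthfd2l, Mthfd1l, Shmt2, Aldh1l2, Slc25a32, Mtfmt, Gldc, Amt and Gcsh. They were picked by gene symbol from the deposited count table, and all 10 were found among its 35072 genes. All 10 were also among the 13299 genes with enough reads to be tested. The cells were CD8 T cells from spleen and lymph nodes of wildtype mice. Every culture was activated with aCD3, aCD28 and IL-12 for 18 h, so no group is unstimulated. The treated group then received 2 mM formate for 24 h (4 libraries), and the control group received PBS, a salt buffer, for the same time (4 libraries). No label ties a library to an animal or a separate culture; every p-value is therefore about library-to-library spread, part or all of which may be technical. The comparison asks whether cells given extra formate, the end product of this pathway, express the genes that make it at another level.

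In mitochondria, SHMT2 splits serine into glycine and passes the released carbon to tetrahydrofolate. MTHFD2, or its isozyme MTHFD2L, oxidises that carbon unit, and MTHFD1L releases it as formate, which leaves the mitochondrion and feeds purine and thymidylate synthesis in the cytosol. ALDH1L2 oxidises the unit to CO2 instead, MTFMT uses it to formylate the initiator methionyl-tRNA of mitochondrial translation, and SLC25A32 carries folate across the inner membrane. The glycine cleavage system, made of GLDC, AMT, GCSH and the shared subunit DLD, yields the same carbon unit from glycine. Activated T cells are known to induce the SHMT2 and MTHFD2 branch as they start to divide.

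Each library held between 29361986 and 41393093 estimated reads on genes. The libraries are named below by the number in their titles: formate libraries 2, 8, 11 and 14, and control libraries 1, 7, 10 and 13. Libraries with neighbouring numbers (2 and 1, 8 and 7, 11 and 10, 14 and 13) deviated together from their group means, so a fit with these pairs as a block is given beside the unpaired one. Libraries 1 to 8 and libraries 10 to 14 also stood apart as sets: for 33.9% of all tested genes the levels of the sets did not overlap. The labels do not say what separates them. Both libraries of each pair lie in the same set, and whether neighbours were alike beyond their set was not tested. Of 6 CD8 T cell markers, 5 were in the table; they summed to between 1355 and 1391 CPM (read counts scaled to library size) in formate libraries and between 1313 and 1503 CPM in control libraries. B cell markers summed to at most 22.1 and 19.2 CPM, CD4 to at most 7.60 and 6.32 CPM, and the 5 myeloid markers to at most 2.48 and 1.97 CPM in formate and control libraries. Of the 4 B cell markers, Ms4a1 rose with the block (3.68 ± 1.91 CPM in formate libraries and 2.39 ± 1.16 CPM in control libraries, SD, n = 4 each), by 0.62 on the log2 scale (edgeR adjusted p = 0.0275). Stromal markers stayed at or below 1.48 CPM in any library and NK markers below 0.1 CPM, while Hba-a1 and Pf4 were at 0 throughout. The genes of the mitochondrial genome took between 0.560% and 0.906% of counts in formate libraries, against 0.414% to 0.566% in control libraries. What part these differences play in the values below was not tested.

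Per length of transcript, the serine-to-formate enzymes were the most abundant of the 10 genes. Shmt2 averaged 256 ± 38.3 CPM per kilobase of its principal transcript in formate libraries and 245 ± 12.7 in control libraries (SD, n = 4 each). Mthfd2 followed with 135 ± 21.1 and 130.4 ± 5.59 CPM per kilobase in formate and control libraries. Mthfd1l and Gcsh, with means over all 8 libraries of 60.8 and 49.6 CPM per kilobase, came next, and their ranges overlapped. Mtfmt and Slc25a32 lay below them at 13.5 and 3.87 CPM per kilobase. The last 4 genes were close to the bottom of the scale, with Amt at 1.08, Mthfd2l at 0.981, Aldh1l2 at 0.859 and Gldc at 0.152 CPM per kilobase. Each of these overlapped in range with its neighbour in the order, whereas Shmt2, Mthfd2, Gcsh, Mtfmt and Slc25a32 did not overlap with the gene below. Of the 2 isozymes, Mthfd2 made up 99.16% to 99.38% of their summed level per kilobase in formate libraries and 99.13% to 99.36% in control libraries. Within the glycine cleavage system the subunits were unequal. Gcsh, the lipoyl carrier protein, exceeded Gldc, the glycine decarboxylase, by 200.3 to 465.7 times per kilobase in formate libraries and by 240.3 to 379.8 times in control libraries.

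**Figure D1:**
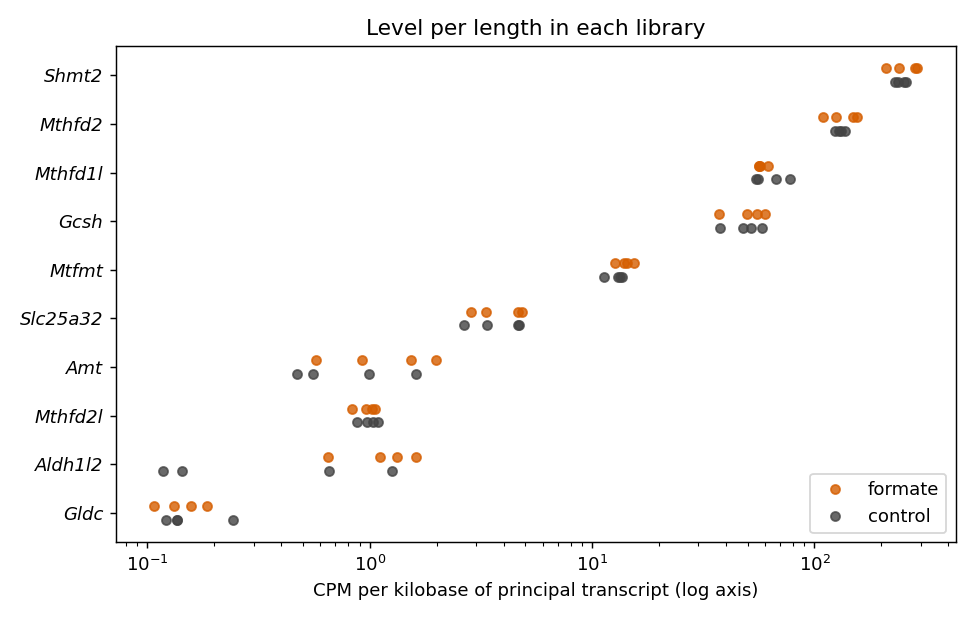
Level of each of the 10 genes in CPM per kilobase of its principal transcript (log axis), 1 point per library, formate beside control. Shmt2 and Mthfd2 stand at the top and Gldc at the bottom, and Aldh1l2 spans the widest range, from 0.118 to 1.62 CPM per kilobase.

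None of the 10 genes passed the test between formate and PBS. In such bulk samples, fewer cells of a type and less RNA per cell cannot be told apart. In the unpaired edgeR quasi-likelihood fit 0 of 10 had an adjusted p under 0.05, where 1 of 13299 genes (0.00752%) did. With neighbouring libraries as a block 0 of 10 passed, where 12.9% of all tested genes passed, 5.35% higher and 7.52% lower. At an unadjusted p under 0.05 the members numbered 0 of 10 unpaired and 2 of 10 with the block (Mtfmt and Amt), against 4.77% and 28.3% of all tested genes. DESeq2 called 0 of the 9 members to which it gave an adjusted p, all but Gldc. The formate and control ranges overlapped for all 10, while they were separate for 4.29% of all tested genes. The median log2 change over the 10 was 0.048 unpaired and 0.040 with the block, beside -0.008 and -0.0031 over all tested genes.

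**Figure D2:**
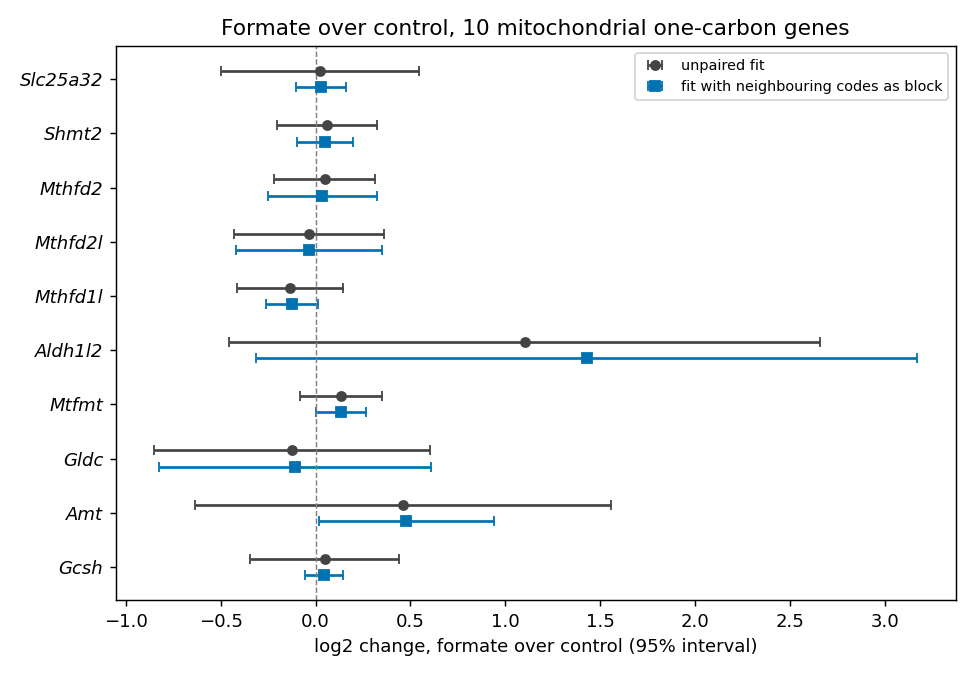
Log2 change, formate over control, of the 10 genes with 95% confidence intervals from the unpaired fit and from the fit with neighbouring libraries as a block. Intervals are narrow around 0 for Shmt2, Slc25a32 and Gcsh with the block, and widest for Aldh1l2, from -0.46 to 2.66 unpaired.

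The intervals set how large a change could have gone unseen. For Shmt2 the log2 change was 0.06 (SE 0.12, 95% interval -0.20 to 0.32) unpaired and 0.05 (-0.10 to 0.20) with the block. For Mthfd2 it was 0.05 (SE 0.12, -0.22 to 0.32) unpaired and 0.03 (-0.25 to 0.32) with the block. Mthfd1l had -0.14 (SE 0.12, -0.42 to 0.14) unpaired and -0.12 (-0.26 to 0.01) with the block, with an adjusted p of 0.222 in that fit. With the block, Gcsh had 0.04 (-0.05 to 0.14) and Slc25a32 had 0.03 (-0.11 to 0.16). The other members had adjusted p-values from 0.160 to 0.927 in the blocked edgeR fit, and all 10 had 0.998 in the unpaired one.

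Shmt2, Mthfd2 and Mthfd1l, the 3 consecutive steps from serine to formate, are shown first by their promoters and then by library. In GRCm38, Mthfd2 lies on chr6:83305691-83325908 (minus strand), Shmt2 on chr10:127517123-127522444 (minus strand) and Mthfd1l on chr10:3973118-4167081 (plus strand). The windows below run from 250 bases before to 50 bases after the RefSeq start of each gene (GRCm38.p6), at chr6:83317555-83317854 on the minus strand for Mthfd2, chr10:127522395-127522694 on the minus strand for Shmt2 and chr10:3972825-3973124 on the plus strand for Mthfd1l. They are given 5′ to 3′ on the gene's strand, because these are the members whose pairs moved with the library sets, and capitals mark matches to the motifs named after them.
Mthfd2: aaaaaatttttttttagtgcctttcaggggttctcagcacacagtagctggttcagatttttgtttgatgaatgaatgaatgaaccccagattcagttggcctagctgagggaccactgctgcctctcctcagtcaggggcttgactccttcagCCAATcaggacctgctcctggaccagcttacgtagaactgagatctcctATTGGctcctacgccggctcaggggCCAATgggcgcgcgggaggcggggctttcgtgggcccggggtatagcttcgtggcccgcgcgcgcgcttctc
Shmt2: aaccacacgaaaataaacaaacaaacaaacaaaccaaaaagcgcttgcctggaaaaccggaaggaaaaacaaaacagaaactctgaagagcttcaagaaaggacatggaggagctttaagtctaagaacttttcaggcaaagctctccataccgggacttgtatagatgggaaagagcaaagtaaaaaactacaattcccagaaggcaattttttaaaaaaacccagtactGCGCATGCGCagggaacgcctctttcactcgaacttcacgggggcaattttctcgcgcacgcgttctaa
Mthfd1l: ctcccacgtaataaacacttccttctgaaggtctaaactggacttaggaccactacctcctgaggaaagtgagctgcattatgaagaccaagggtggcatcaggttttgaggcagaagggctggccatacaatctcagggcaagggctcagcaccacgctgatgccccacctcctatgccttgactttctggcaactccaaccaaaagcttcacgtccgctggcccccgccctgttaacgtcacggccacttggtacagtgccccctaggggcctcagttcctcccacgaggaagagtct
RefSeq windows were matched for 8 of the 10 genes, not for Aldh1l2 and Slc25a32. Both strands were searched for TGATGNAA, the core of the amino acid response element, and CACGTG, the E-box bound by MYC and related factors. Neither was found in any of the 8, while 3.97% and 7.15% of the 32851 promoters of the same length held them. After the sequences were read, CCAAT, the NF-Y box, and CATGCGC, letters from the middle of the NRF1 motif, were added. CCAAT stood 3 times in the Mthfd2 window, with first bases at -96, -47 (on the other strand) and -22 from the start, and 37.4% of promoters hold it at least once. Position 0 is the start site. The Gldc, Amt and Gcsh windows held CCAAT as well. CATGCGC stood in the Shmt2 window on both strands at overlapping bases, with first bases at -19 and -16, and in the Mtfmt window; 3.91% of promoters hold it. The Mthfd1l window held none of the 4. A match describes letters only and no binding was measured.

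Mthfd2, the dehydrogenase-cyclohydrolase, had 312, 323, 229 and 260.5 CPM in formate libraries 2, 8, 11 and 14, against 257, 269, 275 and 285 CPM in control libraries 1, 7, 10 and 13. Formate libraries 2 and 8 were the highest of all and formate library 11 the lowest, on either side of the control libraries. Shmt2, the serine hydroxymethyltransferase, had 649, 664, 479 and 547 CPM in formate libraries, against 546, 576, 528 and 593 CPM in control libraries. Its formate libraries again held both extremes. Mthfd1l, which makes the formate, had 207, 211, 228 and 208 CPM in formate libraries, against 200.3, 206, 286.0 and 248 CPM in control libraries. Here the spread lay in the control group, whose libraries 10 and 13 exceeded all 4 formate libraries.

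**Figure D3:**
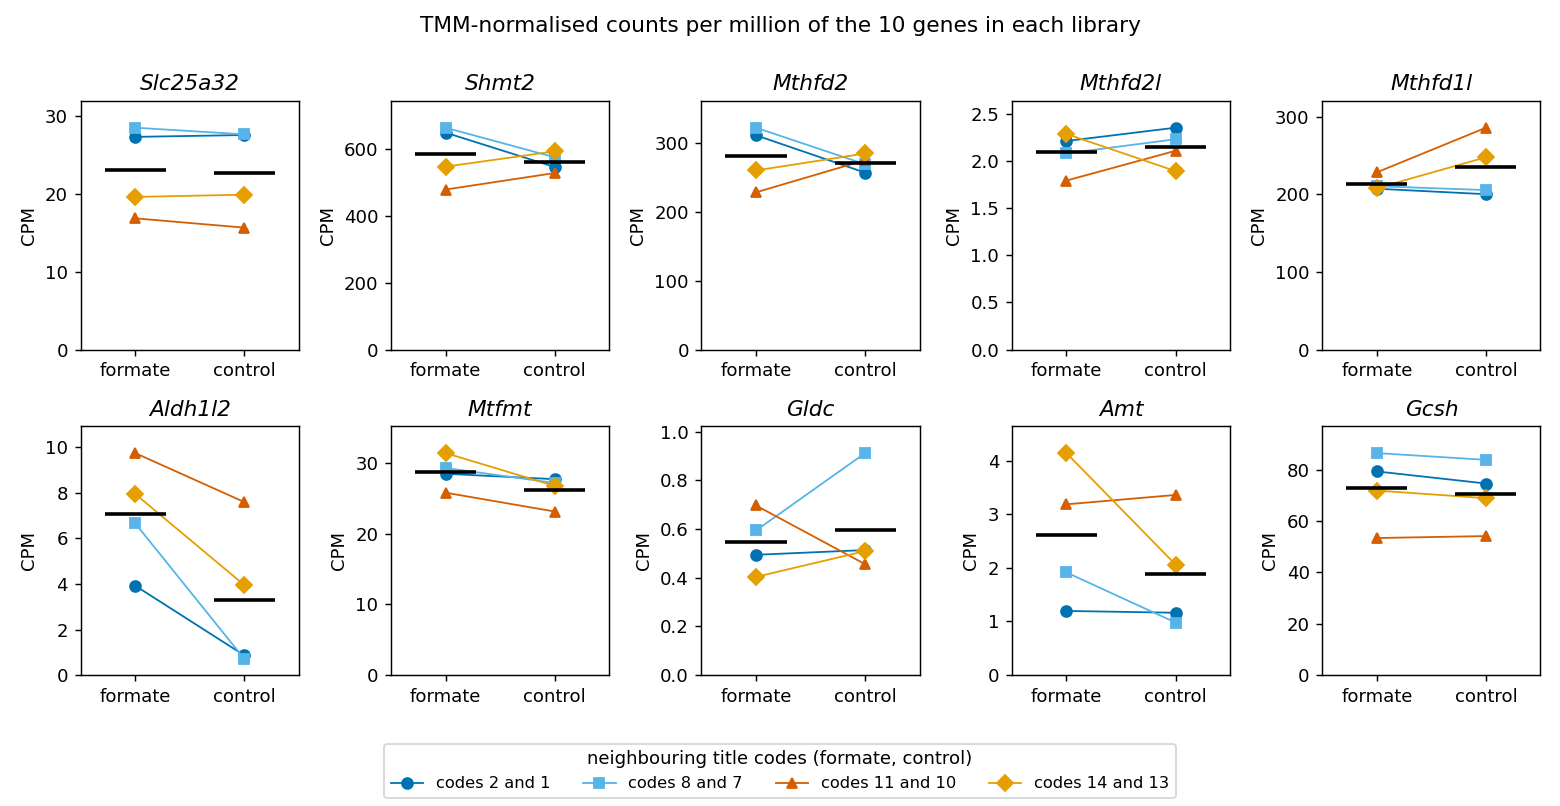
CPM of the 10 genes in each library, formate left of control, with the group mean as a bar. Each pair of neighbouring libraries has its own marker shape and colour and is joined by a line. The groups overlap for every gene, and for Mthfd2 formate libraries 2 and 8 lie above control libraries 1 and 7 while 11 and 14 lie below 10 and 13.

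Within pairs, formate over control differed in sign between the library sets for the same 3 genes. Mthfd2 had log2 differences of 0.28 and 0.26 in pairs 2 over 1 and 8 over 7, and of -0.27 and -0.13 in pairs 11 over 10 and 14 over 13. Shmt2 had 0.25 and 0.21 in the pairs of libraries 1 to 8, and -0.14 and -0.12 in those of libraries 10 to 14. Mthfd1l had 0.05 and 0.03, and -0.32 and -0.25. This order of signs held for 3 of 10 members and for 4.67% of all tested genes. The sets were known from earlier results of these data, so the 3 are a description and not a test of the split. Myeloid markers, at low levels, also differed between the sets by a narrow margin. The 5 genes summed to 0.388 to 1.395 CPM in libraries 10 to 14 and 1.404 to 2.475 CPM in libraries 1 to 8. This is a difference in level and not in the response to formate, and the sets did not overlap for 33.9% of all tested genes. The part of myeloid cells in these values was not tested.

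The difference of the formate effect between the sets was fitted as an interaction, and 0 of 10 members passed it in either edgeR fit. The split was chosen after earlier results of these data showed the signs of some members to follow it. The unadjusted counts and the intervals of members below therefore describe the split and are no independent test of it. Unpaired, 0 of 13299 genes passed and 3 of 10 members had an unadjusted p under 0.05, against 1.16% of all genes. With the block, 0.0677% of genes passed, and 4 of 10 members had an unadjusted p under 0.05, against 5.06% of all genes. DESeq2 called 11 genes and none of the 9 members with an adjusted p, again all but Gldc. For libraries 10 to 14 minus libraries 1 to 8, the log2 difference in the blocked fit was -0.47 (SE 0.08, 95% interval -0.65 to -0.28) for Mthfd2, with an edgeR adjusted p of 0.0851. It was -0.36 (SE 0.08, -0.54 to -0.18, edgeR adjusted p = 0.303) for Shmt2. For Mthfd1l it was -0.33 (SE 0.08, -0.51 to -0.15, edgeR adjusted p = 0.351).

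**Figure D4:**
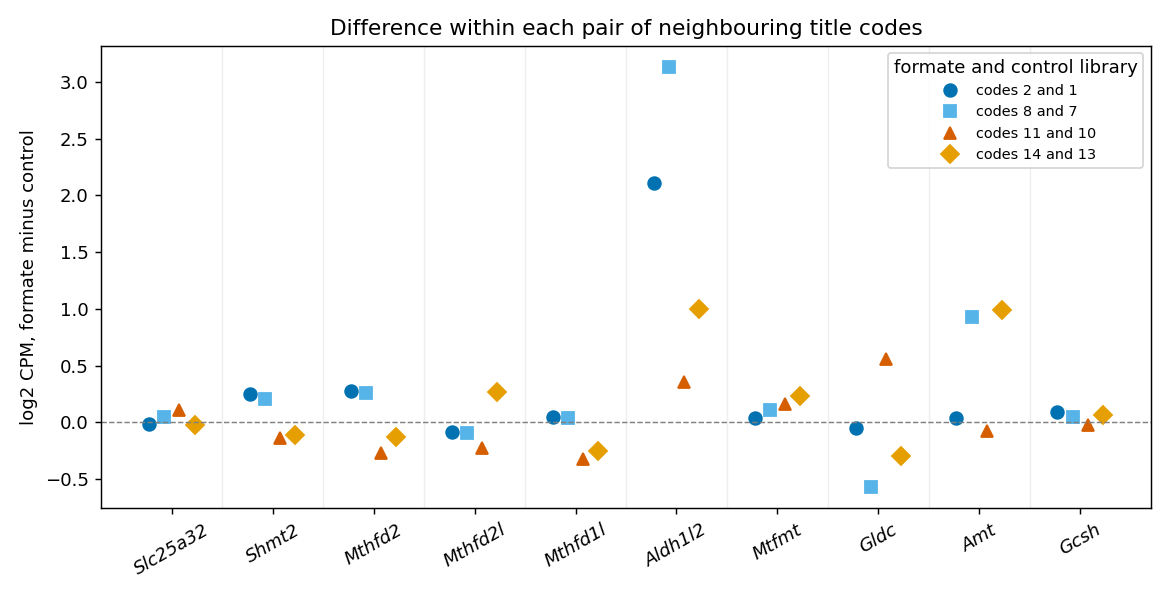
Log2 difference, formate over control, of the 10 genes in each pair of neighbouring libraries, 1 point per pair. Mthfd2, Mthfd1l and Shmt2 lie above 0 in the pairs of libraries 1 to 8 and below 0 in those of libraries 10 to 14, and Aldh1l2 and Mtfmt lie above 0 in all 4 pairs.

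Shmt2 and Mthfd2 kept a nearly constant ratio over the 8 libraries. Shmt2 over Mthfd2 in CPM averaged 2.08 ± 0.0193 in formate libraries and 2.06 ± 0.1000 in control libraries (SD, n = 4 each), with a coefficient of variation of 3.25% over all 8. Their log CPM correlated with Pearson r = 0.953 over the 8 libraries. These libraries differ in depth and belong to different sets, and what part this plays in the correlation was not tested. Mthfd2 over Mthfd1l was less constant, at 1.503, 1.532, 1.001 and 1.251 in formate libraries, against 1.28, 1.31, 0.963 and 1.15 in control libraries. It was higher with formate in 4 of 4 pairs, although the groups overlapped. Profiles were ranked among 9162 genes that averaged 5 CPM or more and had a symbol other than a Gm number or Rik name. Most like Mthfd2 over the 8 libraries were Nars1 (r = 0.971), Yars1 (0.961), Ccdc166 (0.956), Shmt2 (0.953) and Slc7a5 (0.945). Nars1 and Yars1 encode cytosolic aminoacyl-tRNA synthetases and Slc7a5 a carrier of large neutral amino acids. Nars1 had pair differences of 0.34, 0.27, -0.33 and -0.10, and Slc7a5 of 0.30, 0.24, -0.22 and -0.13, the same order of signs as Mthfd2. Both were picked for their likeness to Mthfd2 over these same libraries, so the shared signs follow largely from that choice and test nothing.

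Aldh1l2 (chr10:83487450-83534140, minus strand), which oxidises 10-formyltetrahydrofolate to CO2 and yields NADPH, had the widest spread. It had 3.93, 6.67, 9.75 and 7.96 CPM in formate libraries 2, 8, 11 and 14, against 0.865, 0.709, 7.60 and 3.95 CPM in control libraries 1, 7, 10 and 13. Libraries 1 and 7 stood far below all others, with 32.4 and 21.4 estimated reads. Control library 10 lay above formate libraries 2 and 8, so the groups overlapped. Within pairs the log2 difference was 2.11, 3.13, 0.36 and 1.00, above 0 in 4 of 4, as for 16.0% of all tested genes. The fitted log2 change was 1.10 (SE 0.69, -0.46 to 2.66) unpaired and 1.43 (SE 0.57, -0.32 to 3.17, edgeR adjusted p = 0.237) with the block. Without control library 10 the unpaired value was 1.92, and over all single libraries left out it ran from 0.775 to 1.92. Its difference between the sets was -2.001 (SE 0.35, -2.78 to -1.23) in the blocked fit, with an edgeR adjusted p of 0.0851. In the unpaired fit it was -2.11 (SE 0.52), with an edgeR adjusted p of 0.99993. The unpaired fit with no filter on low counts, and 23059 genes tested, gave -2.1 with an edgeR adjusted p of 2.26e-05.

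Aldh1l2 is uncertain for a reason of annotation. It shares 1056 of its 7503 exon bases with D10Wsu102e on the opposite strand, which had 628 to 824 CPM in formate libraries and 530.0 to 796 CPM in control libraries. The RNA was made into stranded libraries, but whether the counting used strand is not given in the sources used here. D10Wsu102e had 824, 717, 628 and 649 CPM in formate libraries and 796, 651, 530.0 and 633 CPM in control libraries, scaled by total count only. It was higher with formate in 4 of 4 pairs, as were Aldh1l2 and 16.0% of all tested genes. Within the formate libraries its order was the reverse of that of Aldh1l2 (3.93, 6.67, 9.75 and 7.96 CPM). Among control libraries Aldh1l2 was highest in library 10, where D10Wsu102e was lowest. The part of D10Wsu102e in the Aldh1l2 values was not tested. The most similar profile, ranked among named genes in the same way, was that of Pycr1 (r = 0.98 over 8 libraries), a mitochondrial enzyme of proline synthesis. Pycr1 had pair differences of 1.54, 1.67, 0.29 and 0.88 and a blocked log2 change of 1.05 (edgeR adjusted p = 0.129). Rad18, Tinf2, Mib2 and Phf10 followed with r between 0.961 and 0.968.

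Mthfd2l (chr5:90931117-91021368, plus strand), the low-level isozyme of Mthfd2, had 2.21, 2.08, 1.79 and 2.29 CPM in formate libraries, against 2.35, 2.23, 2.11 and 1.89 CPM in control libraries. The groups overlapped, and the log2 change was -0.03 (SE 0.17, -0.43 to 0.36) unpaired. Mtfmt (chr9:65435782-65453054, plus strand), the methionyl-tRNA formyltransferase, had 28.5, 29.3, 25.8 and 31.4 CPM in formate libraries, against 27.8, 27.2, 23.2 and 26.8 CPM in control libraries. Its pair differences were small and of 1 sign, at 0.04, 0.11, 0.16 and 0.23. The blocked log2 change was 0.13 (SE 0.06), with an edgeR adjusted p of 0.163.

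Slc25a32 (chr15:39091231-39112716, minus strand), the folate carrier of the inner membrane, had 27.3, 28.5, 16.9 and 19.6 CPM in formate libraries, against 27.5, 27.6, 15.7 and 19.9 CPM in control libraries. Its sets did not overlap, with means of 18.0 CPM in libraries 10 to 14 and 27.7 CPM in libraries 1 to 8. Slc25a32, Amt and Gcsh were the 3 of 10 members whose sets did not overlap, a share close to the 33.9% of all tested genes.

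None of the glycine cleavage genes passed between formate and control in either edgeR fit. Gldc (chr19:30098447-30175429, minus strand) was counted at 19, 18, 21 and 15 estimated reads in formate libraries and 19, 27, 16 and 21 in control libraries. At this depth only a large change could have been seen: the log2 change was -0.12 with an interval from -0.85 to 0.60. Amt (chr9:108296853-108302302, plus strand), the aminomethyltransferase, had 1.20, 1.91, 3.18 and 4.14 CPM in formate libraries, against 1.16, 0.979, 3.36 and 2.06 CPM in control libraries. Libraries 8 and 14 were well above their partners and libraries 2 and 11 were not, with pair differences of 0.04, 0.93, -0.08 and 0.99. The blocked log2 change was 0.48 (SE 0.22, 0.02 to 0.94, edgeR adjusted p = 0.160), and from 0.271 to 0.696 without 1 pair. Unpaired it was 0.46, against 0.14 without formate library 14 and 0.895 without control library 10. Gcsh (chr8:116981810-116993537, minus strand) had 79.4, 86.6, 53.4 and 71.9 CPM in formate libraries, against 74.7, 83.9, 54.2 and 68.995 CPM in control libraries. It was lower in libraries 10 to 14 (mean 62.1 CPM) than in libraries 1 to 8 (81.1 CPM), as Slc25a32 was, and the correlation of their log CPM was 0.928 over the 8 libraries. Gcsh shares 353 bases at 93.2% identity with a retained-intron transcript of Cysltr2, a gene with at most 310 estimated reads in a library, so a small part of its count could be split. Dld, the subunit shared with other dehydrogenase complexes, had a blocked log2 change of 0.12 (edgeR adjusted p = 0.120). It passed in the blocked fit without pair 10 and 11 (edgeR adjusted p = 0.0285), but not without any other pair.

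Genes around the pathway were read from lists chosen with earlier results of these data known, and all calls below come from the blocked edgeR fit. Of 7 genes listed around the use of mitochondrial folate and formyl groups, 2 rose, 0 fell and 5 did not pass. Of all tested genes 5.35% rose and 7.52% fell. The 2 that rose act before the formyl group is added or after it is removed, and use neither it nor folate themselves. Metap1d (chr2:71453276-71525194, plus strand), the mitochondrial methionine aminopeptidase that acts after the formyl group is removed, had 17.6, 18.5, 14.5 and 15.9 CPM in formate libraries, against 13.7, 12.2, 10.3 and 11.8 CPM in control libraries. Every formate library was above every control library. The log2 change was 0.47 (SE 0.07, edgeR adjusted p = 0.00253), and the call was kept without any 1 pair. With the library set as a term in place of the block, Metap1d did not pass (edgeR adjusted p = 0.169). Mars2, the mitochondrial methionyl-tRNA synthetase, had 45.5, 46.0, 32.3 and 40.6 CPM in formate libraries, against 39.4, 42.7, 25.4 and 34.9 CPM in control libraries. It rose by 0.22 (SE 0.06, edgeR adjusted p = 0.0229), a call lost without pair 1 and 2, 10 and 11 or 13 and 14, with adjusted p-values up to 0.103. Pdf, the deformylase between them, had 0.16 and an edgeR adjusted p of 0.171. The unpaired fit called none of the 3.

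Of the 11 tested cytosolic folate genes 1 fell, as did 7.52% of all tested genes. Mthfd1, the cytosolic enzyme that takes formate back onto tetrahydrofolate, averaged 230.5 ± 68.8 CPM in formate libraries and 276 ± 74.6 CPM in control libraries (SD, n = 4 each). Its blocked log2 change was -0.27 (edgeR adjusted p = 0.00368), and the call was kept without any 1 pair. With the library set as a term in place of the block, Mthfd1 did not pass (edgeR adjusted p = 0.367). Shmt1, the cytosolic counterpart of Shmt2, had -0.02 and an edgeR adjusted p of 0.787. As a ratio of the mitochondrial to the cytosolic enzyme in CPM, Mthfd2 over Mthfd1 was 1.03, 1.19, 1.49 and 1.34 in formate libraries, against 0.740, 0.839, 1.52 and 1.13 in control libraries, higher in 3 of 4 pairs.

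The 3 serine synthesis genes and the 3 mitochondrial serine carriers held no call. Psph, Psat1 and Phgdh, the enzymes of the phosphorylated route to serine, had blocked log2 changes of 0.60, 0.44 and 0.19 (edgeR adjusted p = 0.134, 0.131 and 0.372). Sfxn1, the main serine carrier, had -0.07 (edgeR adjusted p = 0.270). None of 7 genes of lipoylation and the shared subunit passed, nor did Sardh, the 1 tested gene of the choline and sarcosine route. Of 4 mitochondrial NADPH genes 1 fell, where 7.52% of all tested genes did: Nnt, the transhydrogenase, averaged 10.99 ± 3.69 CPM in formate libraries and 13.2 ± 3.05 CPM in control libraries, a log2 change of -0.28 (edgeR adjusted p = 0.0386). That call was lost without any 1 of the 4 pairs, and another gene annotated under the same symbol shares 3339 exon bases with it and had a log2 change of 0.10, so reads can be divided between them and the value is uncertain.

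Genes known as targets of ATF4, the transcription factor of the amino acid response that also acts on Shmt2, Mthfd2, Aldh1l2 and the serine synthesis genes, were listed without the members. Of 19 tested, 3 rose and 0 fell with the block, beside 5.35% and 7.52% of all tested genes. These were Cth, of cysteine synthesis, at 1.33, Stc2, a secreted glycoprotein, at 1.29 (edgeR adjusted p = 0.000799), and Atf3, a stress-induced transcription factor, at 0.42 (edgeR adjusted p = 0.00200). Cth was also the 1 gene called in the unpaired fit (edgeR adjusted p = 0.0212). That unpaired call was kept without control library 10 and lost without any other single library, with adjusted p-values from 0.082 to 0.214. In the blocked fit the 3 kept their calls without any 1 pair. With the library set as a term in place of the block, Cth passed (edgeR adjusted p = 0.00227), while Stc2 (0.119) and Atf3 (0.169) did not. The list median in the pairs was 0.57, 0.51, -0.16 and 0.15. Slc7a11, the cystine carrier, was the 1 listed gene to pass the interaction, with a difference between the sets of -2.68 (SE 0.25, edgeR adjusted p = 0.00125) and pair differences of 2.48, 2.31, -0.60 and 0.06. Asns, asparagine synthetase, had 1.23 (edgeR adjusted p = 0.189) and Atf4 itself 0.13 (edgeR adjusted p = 0.608).

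**Figure D5:**
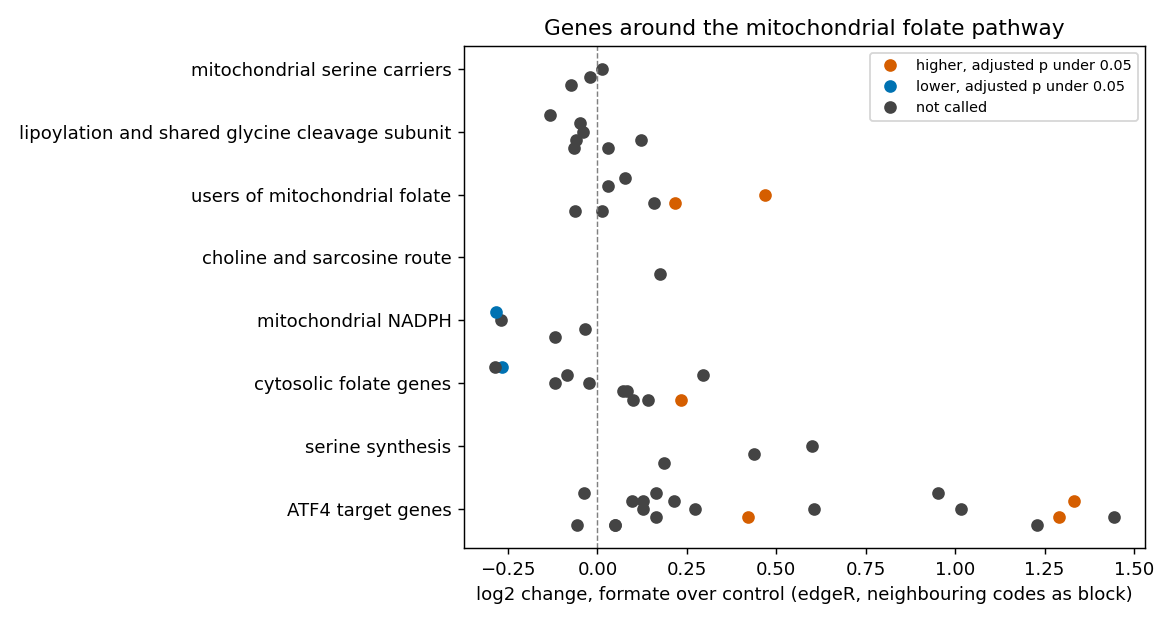
Blocked log2 change, formate over control, of each tested gene in the 8 lists around the pathway, 1 point per gene, with genes past an adjusted p of 0.05 in colour. The coloured points include Metap1d, Mars2, Cth, Stc2 and Atf3 above 0, and Nnt and Mthfd1 below 0.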

How the data were processed

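Per the labels' protocols, polyA RNA of CD8 T cells was made into stranded libraries, 8 in all. Per the submitters' processing notes, Trimmomatic, kallisto and MultiQC were used with mm10 (GRCm38); their versions and the strand setting were not stated in the labels or notes. The values the authors deposited are estimated counts (expected counts) per gene from kallisto, of which 56.7% of non-zero values were not whole; they were rounded. Counts from pseudoalignment can be divided between genes that share sequence. Of 35072 gene IDs, 34581 were in GENCODE M21, used for coordinates and lengths.

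Counts were analysed in edgeR 4.0.16 (R 4.3.3; TMM, filterByExpr, robust quasi-likelihood fit), with Benjamini-Hochberg adjustment over all 13299 tested genes and a threshold of 0.05. The main fit was unpaired. A second had neighbouring title numbers as a block: the replicate numbers follow accession order and pair nothing, and the labels state no pairing, but deviations from group means correlated at 0.653 (libraries 1 and 2), 0.369 (7 and 8), 0.656 (10 and 11) and 0.37 (13 and 14), and 7 of 8 libraries correlated best with their neighbour. Both libraries of each pair lie in the same library set, so these correlations do not separate pairing from set. SE is the log2 change over the root of F, and intervals are 95%. Pair differences and correlations used log2 CPM with a prior count of 2. A fit with an interaction tested title numbers 10 to 14 against 1 to 8. The scripts were tested on simulated data.

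The members, lists and sets were chosen with earlier results of these data known. The named genes were all 10 members, the called genes of the lists (at most 5 per list and fit) and 8 genes of the lists given whatever they did, and the 5 most similar profiles of Mthfd2 and Aldh1l2; Pdf, Psph, Sardh and Slc7a11 were named after their values were seen, and 1 result of the lists is not reported here. Alternatives were DESeq2 1.42.0, other scalings and filters, the library set as a term, left-out libraries or pairs, and each set alone. Depth ran from 29361986 to 41393093 counts; a floor of 3 counts is 0.102 CPM in the smallest library, for counting error only.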

Additional observations from a re-analysis of the deposited data

Results flagged for a closer look

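Of 20 groups of 4 libraries checked (10 genes, 2 groups each), 2 held a library far from the other 3; chance alone gives about 1 in 20. For Mthfd1l, formate library 11 had 228 CPM while the other 3 formate libraries lay between 207 and 211 CPM. For Gldc, control library 7 had 0.912 CPM while the other 3 control libraries lay between 0.455 and 0.513 CPM, a difference of a few reads at 27 against 16 to 21 estimated reads.

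For 3 genes every pair of libraries 10 to 14 differed in the opposite direction to every pair of libraries 1 to 8. The log2 difference between the sets (libraries 10 to 14 minus 1 to 8) was -0.467 for Mthfd2, -0.33 for Mthfd1l and -0.356 for Shmt2. As an interaction in edgeR with the block, the difference did not pass for Mthfd2 (adjusted p = 0.0851), Mthfd1l (adjusted p = 0.351) or Shmt2 (adjusted p = 0.303).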

How the results depend on the processing

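No member passed between formate and control under any alternative run, and all 10 were tested under each except Gldc, which had no adjusted p in DESeq2 and no value when at least 1 CPM in 4 libraries was required. Counts over all genes did move: 1 gene was called in the unpaired fit, 1711 with the replicate block and 21 by DESeq2. With the library set as a term in place of the block 1 gene (Cth) was called, and within libraries 1 to 8 or 10 to 14 alone 0 were. Leaving out 1 library or, with the block, 1 pair gave from 0 to 1371 genes: without pair 1 and 2, 7 and 8, 10 and 11, or 13 and 14 the block called 337, 722, 1371 and 502. The block (the pairing by neighbouring titles) changed no member's call. In the unpaired test between sets, 1 member (Aldh1l2) was called with no filter, when 84 genes were.

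The unpaired call of Cth was lost within libraries 1 to 8 (adjusted p = 0.136) and 10 to 14 (adjusted p = 0.911) in edgeR, on 2 libraries a group.

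Some values changed sign; the cause was not tested. With scaling by library size only, Mthfd2l had 0.000855. Within libraries 1 to 8, Mthfd1l had 0.038. Within libraries 10 to 14, Mthfd2 had -0.18, Mthfd2l 0.046, Shmt2 -0.11, Gldc 0.19, Shmt1 0.026 and Atf4 -0.082. Without 1 library or pair, log2 changes ran from -0.038 to 0.135 for Mthfd2, -0.00879 to 0.14 for Shmt2, -0.138 to 0.0295 for Mthfd2l, -0.114 to 0.142 for Slc25a32, -0.0559 to 0.166 for Gcsh, -0.34 to 0.14 for Gldc and -0.241 to 0.111 for Shmt1. Differences between sets ran from -0.396 to 0.322 for Amt, -0.242 to 0.196 for Gcsh, -0.125 to 0.204 for Slc25a32 and -0.0338 to 0.326 for Mthfd2l. Depth limits Gldc, at 15 to 27 estimated reads, and Aldh1l2 in control libraries 1 and 7.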
